A study of Mus musculus with 6 samples.

Results

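Malat1 and Neat1, the long non-coding RNAs of nuclear speckles and paraspeckles, and Sfpq, Nono and Pspc1, which encode core paraspeckle proteins, were measured in mouse embryonic stem cells (mESC) with a normal or a reduced dose of Srrm2. The 5 genes were taken by name from a table of 42450 genes, and all 5 were among the 18905 genes with enough counts to be tested. Total RNA was sequenced from 3 WT and 3 Srrm2+/- libraries. Both groups are cells of the E14tg2a.4 line. WT is the parental line without a modified Srrm2 allele, and Srrm2+/- is the gene-trap line CG0630, in which a cassette in exon 1 truncates 1 of the 2 Srrm2 alleles. No other allele or agent distinguishes the groups in the labels. The labels state that both were kept on gelatin in GMEM with LIF and then in serum-free ESGRO medium with LIF before collection. Per the methods, the 3 replicates of a line came from separately frozen batches, and every WT batch was at a higher passage number than every Srrm2+/- batch, so passage and genotype cannot be told apart. Srrm2+/- is a single gene-trap line, and the replicates of each group are cultures of 1 line.

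Nuclear speckles are protein-rich bodies that store splicing factors, and SRRM2 is one of their scaffold proteins. Malat1 is an abundant RNA that concentrates in speckles. Paraspeckles are neighbouring bodies built on the long isoform of Neat1, to which dimers of the related RNA-binding proteins SFPQ, NONO and PSPC1 attach. SFPQ and NONO keep the long isoform stable, whereas PSPC1 is not essential for the bodies to form. In human pluripotent stem cells Neat1 is low, and paraspeckles appear as the cells differentiate.

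The 3′ ends of the 2 RNAs are shown because Malat1 and the long Neat1 isoform both lack an ordinary poly(A) tail. Each ends in a U-rich and A-rich stretch that folds into a triple helix, and the RNA is released when RNase P cuts before a tRNA-like structure. Sequences are the GENCODE M21 transcripts on GRCm38, minus strand, written 5′ to 3′ with T for U. Capitals mark the T-rich motif (4 or more T, then GC, then 4 or more T) and the A-rich tract (4 or more A, then GC, then AAAA). The Malat1 stretch lies at chr19:5795982-5796061 and is followed directly by the bases at chr19:5795924-5795981. The Neat1 stretch is the annotated end of transcript Neat1-201, at chr19:5824708-5824787, and is followed directly by the separately annotated small RNA Gm27702 at chr19:5824652-5824707.
Malat1, end of the A-rich tract: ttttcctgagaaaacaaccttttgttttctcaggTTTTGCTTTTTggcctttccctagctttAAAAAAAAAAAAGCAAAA
Neat1, end of the long isoform: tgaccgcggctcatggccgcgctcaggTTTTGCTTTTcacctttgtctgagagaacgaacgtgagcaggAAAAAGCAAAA
Malat1, bases that follow: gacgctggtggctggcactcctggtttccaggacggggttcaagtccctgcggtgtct
Gm27702, bases that follow Neat1: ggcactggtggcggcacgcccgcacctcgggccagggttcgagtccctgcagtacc
The 2 printed ends are windows of 80 bases counted back from the end of the A-rich tract, and need not hold the whole triple-helix element. In a global alignment, these windows shared 51 of 94 aligned positions (54.3%) and the 2 tRNA-like stretches 40 of 58 (69%). Among the last 80 bases of 140371 annotated mouse transcripts, read on the transcript's strand, the T-rich motif occurred in 0.062%, the A-rich tract in 0.0969%, and both together in Neat1-201 alone. Malat1-201 is annotated for another 292 bases past its tract, so its own last 80 bases do not hold the motifs. Gm27702 had 0 counts in all 6 libraries. It is 56 bases long, shorter than the sequenced reads, so the 0 does not show that this RNA was absent.

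The short Neat1 isoform ends instead at a poly(A) site, and its end is shown because the choice between this site and read-through sets the amount of the long isoform. The annotated transcript is 3004 bases long. Its last 60 bases lie at chr19:5842307-5842366, with the AATAAA signal and a TGTA, the core of the site bound by the cleavage factor CFIm, in capitals.
Neat1, end of the short isoform: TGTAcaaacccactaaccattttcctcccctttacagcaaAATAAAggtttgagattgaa
The signal starts 20 bases from the annotated end. Of the same annotated transcripts, 27.4% held AATAAA and 25.2% held TGTA in their last 60 bases. Counts in the table are per gene, so the short and long isoforms of Neat1 could not be told apart.

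As a check of the labels, Srrm2 was measured at 95.7 ± 3.94 CPM in WT and at 59.3 ± 3.02 CPM in Srrm2+/- cells (counts scaled to library size by TMM; SD, n = 3 each). Its log2 fold change was -0.69 (SE 0.05; adjusted p = 2.38e-05 by the edgeR test). Over all tested genes, 25.3% were called at an adjusted p under 0.05, with 13.6% higher and 11.7% lower in Srrm2+/- cells, and for 41.4% the 3 WT and 3 Srrm2+/- values did not overlap. The median log2 fold change was -0.00 and the median of its absolute value 0.19. Of 10 ESC marker genes for pluripotency, 6 fell and 1 rose, and their summed level was 5219 to 5408 CPM in WT and 4517 to 4644 CPM in Srrm2+/- cells. Markers of the formative state, the stage that follows naive pluripotency, were higher for 6 of 6, with sums of 182 to 204 CPM in WT and 351 to 434 CPM in Srrm2+/- cells. Of 7 fibroblast genes, 5 were tested and 3 rose. Sums over the 7 were 3.36 to 3.63 CPM in WT and 6.53 to 9.89 CPM in Srrm2+/- cells. Of 7 primitive endoderm genes, 5 were tested and 1 rose (sums of 2.39 to 2.70 and 2.56 to 3.64 CPM). Of 6 trophectoderm genes, 4 were tested, of which Eomes rose and Tfap2c fell (sums of 52.0 to 52.9 and 32.3 to 35.3 CPM). Tfap2c alone measured 50.6 ± 0.442 CPM in WT and 30.8 ± 1.78 CPM in Srrm2+/- cells (SD, n = 3 each). It was the only trophectoderm gene with a mean of at least 1 CPM in either group, so these sums follow that 1 gene. The WT mean reached 1 CPM for 0 of 7 primitive endoderm and 1 of 7 fibroblast genes, and the Srrm2+/- mean for 1 and 4. No marker on these lists was at 0 counts in every library. Their part in the results for the 5 genes was not tested. In bulk RNA, fewer cells of a type and less RNA per cell cannot be told apart.

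Of the 5 genes, 4 were called, 1 higher (Malat1) and 3 lower (Neat1, Sfpq, Pspc1) in Srrm2+/- cells, where 25.3% of all tested genes were called. The same 4 had WT and Srrm2+/- values that did not overlap, against 41.4% of all genes. Malat1 and Neat1, whose genes lie 22.0 kb apart on the same strand, moved in opposite directions. Among the 3 proteins, the transcripts of Sfpq and Pspc1 were lower, to 0.895 and 0.908 times the WT level, and that of Nono did not pass the test.

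**Figure D1:**
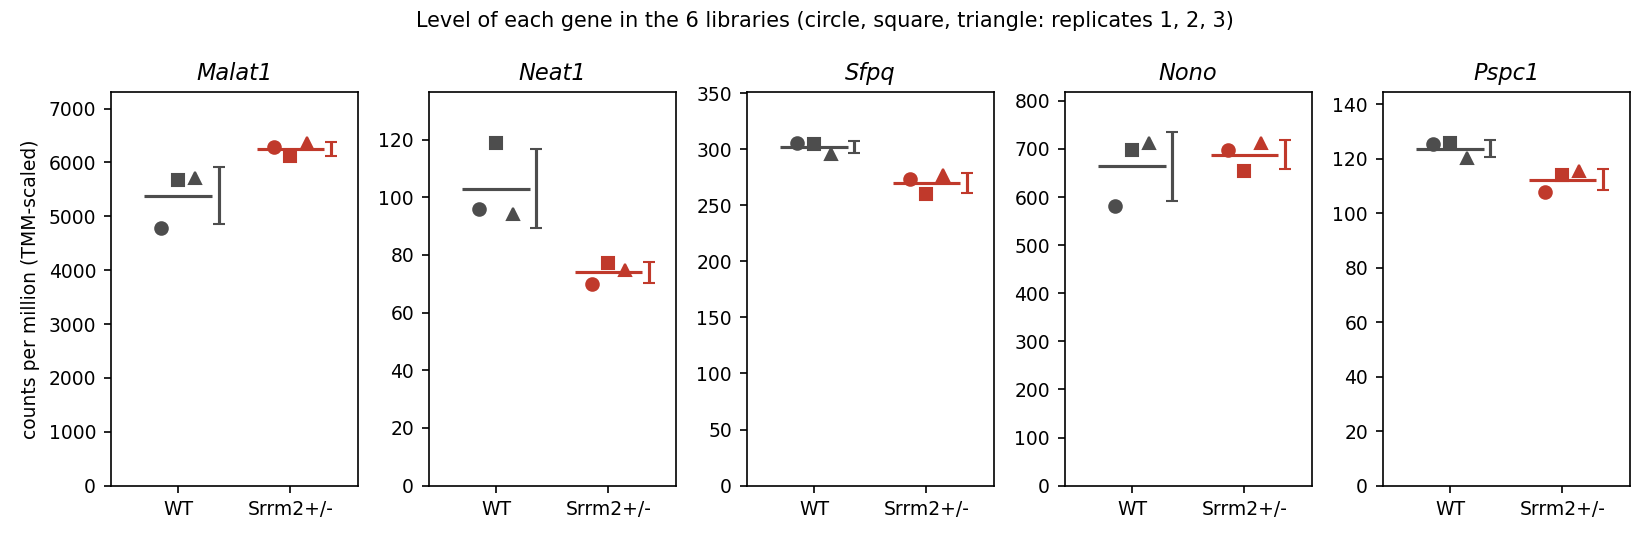
TMM-scaled CPM of Malat1, Neat1, Sfpq, Nono and Pspc1 in each library, WT in grey and Srrm2+/- in red, with y axes starting at 0; points are libraries, horizontal lines group means and bars the SD over 3 libraries. Malat1 sits higher and Neat1, Sfpq and Pspc1 sit lower in all 3 Srrm2+/- libraries than in any WT library, and the Nono values overlap.

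Malat1 (ENSMUSG00000092341) is a lincRNA gene at chr19:5795690-5802672 (GRCm38, minus strand), and its longest transcript is a single exon of 6983 bases. It measured 4778, 5669 and 5712 CPM in WT replicates 1, 2 and 3, and 6292, 6111 and 6355 CPM in the Srrm2+/- replicates. The lowest Srrm2+/- library was above the highest WT library, and WT replicate 1 lay well below the other 2. Means were 5387 ± 527 CPM in WT and 6252 ± 127 CPM in Srrm2+/- cells (SD, n = 3 each), a 1.16-fold level and a log2 fold change of 0.22 (SE 0.07, 95% confidence interval 0.07 to 0.37; edgeR adjusted p = 0.0426). Without WT replicate 1 the log2 fold change was 0.14, with the same adjusted p of 0.0426. Leaving out any 1 of the 3 Srrm2+/- libraries ended the call, with log2 fold changes of 0.21, 0.23 and 0.20 and adjusted p of 0.0916, 0.0832 and 0.112 without replicates 1, 2 and 3.

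Malat1 held rank 9 by CPM among all tested genes in both groups. It took 0.538 ± 0.042% of all estimated counts in WT and 0.625 ± 0.0171% in Srrm2+/- cells (SD, n = 3 each). Of the counts in lincRNA genes, Malat1 took 23.9 to 28.6% in WT and 28.5 to 31.4% in Srrm2+/- libraries, ranges that overlapped. The antisense gene Gm37376 and the small RNA Gm27694, which overlap the Malat1 exon, had 0 counts in every library. Of the 31-base words of Malat1 transcripts, matched on either strand, 6.81% also occurred in transcripts of other genes, and 6.02% were shared with Gm37376.

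Neat1 (ENSMUSG00000092274) is a lincRNA gene at chr19:5824708-5845478 (minus strand), whose long transcript covers all of its 20771 bases. Its values were 96.0, 119 and 94.3 CPM in WT replicates 1, 2 and 3 and 70.0, 77.2 and 74.8 CPM in the Srrm2+/- replicates. Every Srrm2+/- library was below every WT library, and WT replicate 2 was the highest. The mean fell from 103 ± 13.6 CPM to 74.0 ± 3.64 CPM (SD, n = 3 each), a 0.718-fold level and a log2 fold change of -0.48 (SE 0.09, 95% confidence interval -0.67 to -0.28; edgeR adjusted p = 0.00357). The call held with each library left out, with log2 fold changes from -0.54 to -0.36 and the smallest of them without WT replicate 2. Neat1 rested on 4614 to 6863 estimated counts per library. Of the small RNAs annotated inside it, Gm27533 and Gm27505 had 0 counts and Gm28006 at most 4, and 2.20% of its 31-base words occurred in other genes.

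Sfpq (ENSMUSG00000028820, chr4:127021324-127037013, plus strand) encodes the splicing factor that holds paraspeckle dimers in longer chains. It measured 305, 304 and 296 CPM in the WT replicates and 273, 260 and 277 CPM in the Srrm2+/- replicates. Both groups were tight, and the highest Srrm2+/- library stayed below the lowest WT library. Means were 302 ± 5.05 and 270 ± 9.18 CPM (SD, n = 3 each), a 0.895-fold level and a log2 fold change of -0.16 (SE 0.04, 95% confidence interval -0.25 to -0.07; edgeR adjusted p = 0.018). The call was lost without WT replicate 2 (log2 fold change -0.15, adjusted p = 0.0577) and without Srrm2+/- replicate 2 (-0.13, adjusted p = 0.07). Gm12940, a processed transcript on the same strand, shares 216 exon bases with Sfpq, had 2248 to 2753 estimated counts per library, and was lower in Srrm2+/- cells (log2 fold change -0.33, SE 0.06; adjusted p = 0.00432). Kallisto can divide reads between them, and with their counts summed, an analysis chosen after seeing the data, the log2 fold change was -0.18 (adjusted p = 0.00744).

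Pspc1 (ENSMUSG00000021938, chr14:56720710-56778316, minus strand) encodes paraspeckle protein 1, a partner that dimerises with NONO or SFPQ. Its WT replicates measured 125, 126 and 120 CPM and its Srrm2+/- replicates 108, 114 and 115 CPM. The groups did not overlap, but the gap between them was smaller than the range within either group. Means were 124 ± 3.11 and 112 ± 3.99 CPM (SD, n = 3 each), a 0.908-fold level and a log2 fold change of -0.14 (SE 0.04, 95% confidence interval -0.23 to -0.05; edgeR adjusted p = 0.0369). This call was lost whichever library was left out, with log2 fold changes from -0.16 to -0.11 and adjusted p from 0.051 without WT replicate 3 to 0.115 without WT replicate 2. It was also lost when genes with at least 1 count were all tested (log2 fold change -0.13, adjusted p = 0.0634). None of the 31-base words of Pspc1 occurred in another gene.

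Nono (ENSMUSG00000031311, chrX:101429318-101448591, plus strand) encodes the most abundant of the 3 transcripts here, for a protein that pairs with SFPQ in transcription, splicing and DNA repair. It measured 581, 698 and 712 CPM in the WT replicates and 699, 655 and 712 CPM in the Srrm2+/- replicates. The groups overlapped, and WT replicate 1 was the lowest, as for Malat1. Means were 664 ± 71.7 and 688 ± 29.7 CPM (SD, n = 3 each), and the log2 fold change was 0.05 (SE 0.07, 95% confidence interval -0.12 to 0.22; edgeR adjusted p = 0.671). Without WT replicate 1 the sign turned, to -0.03 (adjusted p = 0.684). The processed pseudogene Gm8806 shares 16.8% of the 31-base words of Nono but held 1 to 9 counts per library, and adding them left the log2 fold change at 0.05.

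**Figure D2:**
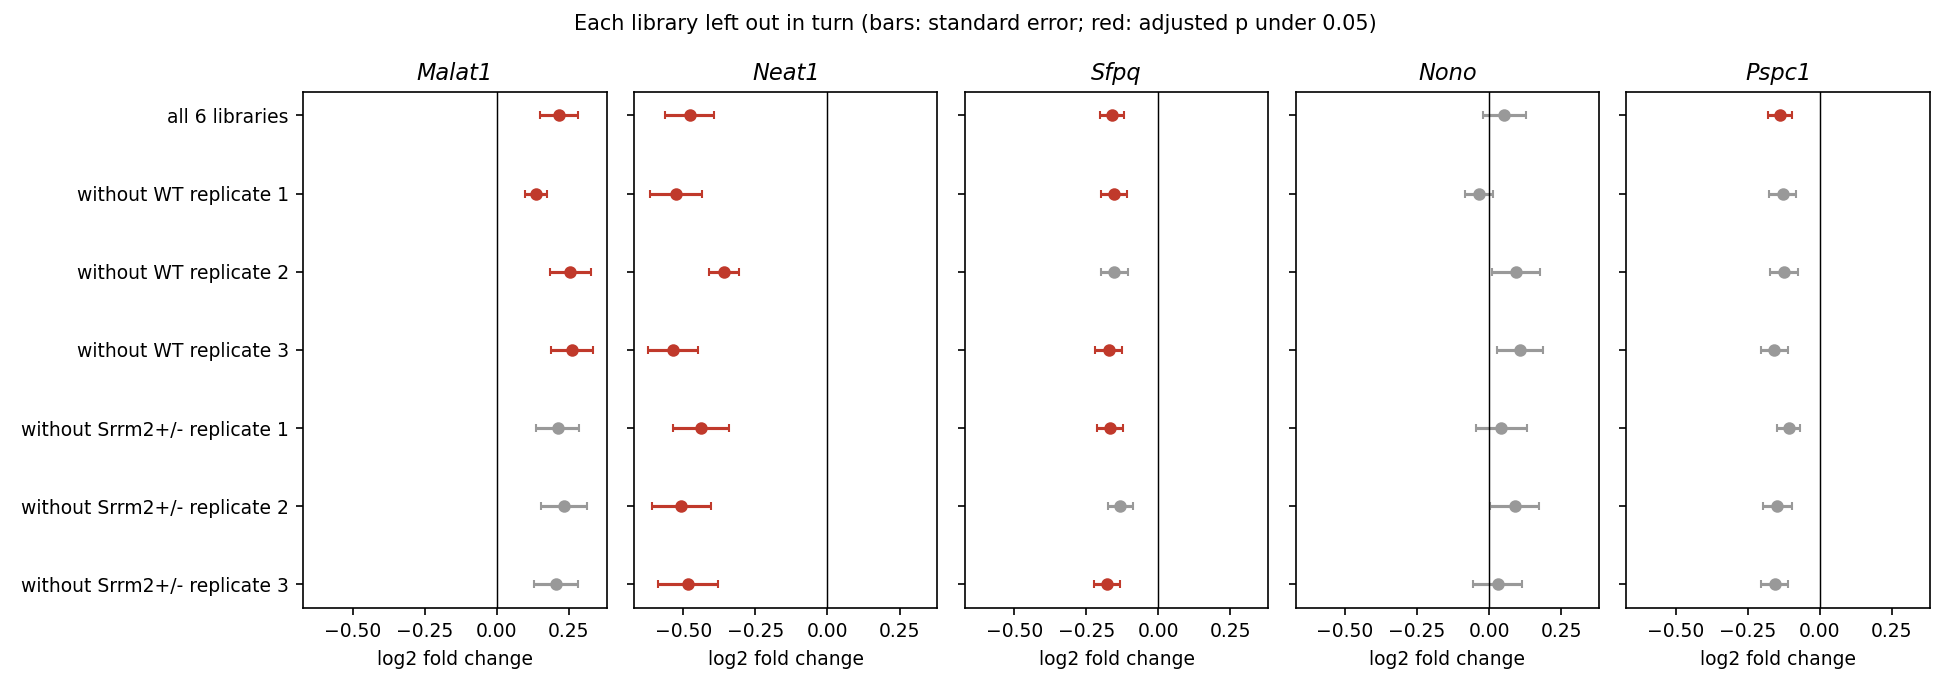
Log2 fold change of each gene, Srrm2+/- over WT, with all 6 libraries and with each library left out in turn; bars are the SE and red marks an adjusted p under 0.05. Neat1 stays red in all 7 fits, Malat1 loses the call without any 1 Srrm2+/- library, Pspc1 without any 1 library, and Nono crosses 0 without WT replicate 1.

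Per kilobase of exon, the order of the 5 genes was the same in both groups. Malat1 stood at 771 ± 75.5 CPM per kb in WT and 895 ± 18.1 in Srrm2+/- cells, followed by Nono at 152 ± 16.4 and 157 ± 6.80. Sfpq came next at 63.6 ± 1.06 and 56.9 ± 1.94 CPM per kb, then Pspc1 at 21.6 ± 0.543 and 19.6 ± 0.696. Neat1 was the lowest, at 4.96 ± 0.657 CPM per kb in WT and 3.56 ± 0.175 in Srrm2+/- cells (SD, n = 3 for each). No 2 neighbours in this order came within their spread of each other in either group. The length used is the union of all annotated exons, so it does not follow the isoform that is present. On the CPM scale, which is relative to the library, the group means differed by 866 CPM for Malat1 and by -29.0 CPM for Neat1.

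Ratios within a library do not depend on how libraries are scaled, and they were used to ask whether members changed unequally. The estimated counts of Neat1 were 2.01, 2.09 and 1.65% of those of Malat1 in WT replicates 1, 2 and 3, and 1.11, 1.26 and 1.18% in the Srrm2+/- replicates. The groups did not overlap, and the mean log2 ratio differed by -0.69 (-5.71 ± 0.18 in WT and -6.40 ± 0.09 in Srrm2+/- cells; SD, n = 3 each; exact two-sided permutation test p = 0.1, adjusted over 4 ratios 0.2). With 3 libraries against 3, 0.1 is the smallest p that this test can give, so no ratio could pass a threshold of 0.05.

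The ratio of Sfpq to Nono was also lower in every Srrm2+/- library, at 38.9 to 39.6% against 41.6 to 52.5% in WT, with a difference in mean log2 ratio of -0.22 (exact permutation test p = 0.1, adjusted 0.2). Without WT replicate 1, which was low in Nono, this difference was -0.12. Pspc1 was 16.9 to 21.6% of Nono in WT and 15.4 to 17.4% in Srrm2+/- cells, ranges that overlapped, with a difference of -0.20 (exact permutation test p = 0.2, adjusted 0.267) that shrank to -0.09 without WT replicate 1. Pspc1 against Sfpq gave 40.6 to 41.3% in WT and 39.5 to 43.9% in Srrm2+/- cells, a difference of 0.02 (exact permutation test p = 0.7, adjusted 0.7) that turned to -0.02 without Srrm2+/- replicate 2.

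**Figure D3:**
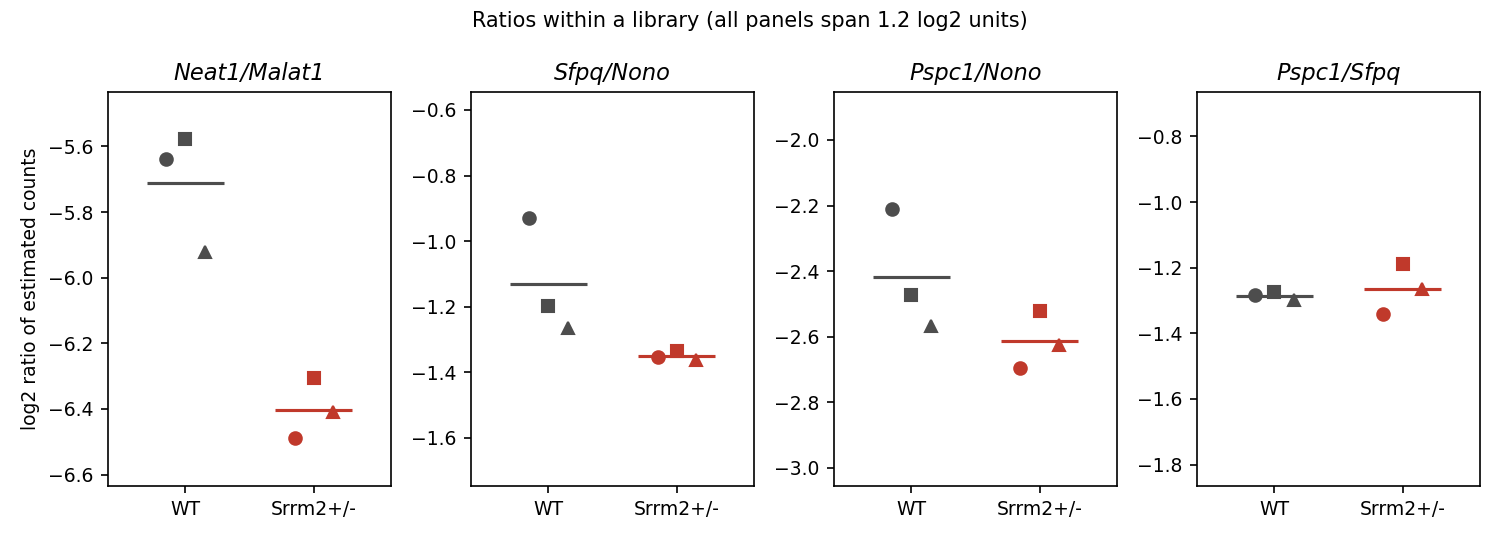
Log2 ratio of estimated counts within each library for Neat1 to Malat1, Sfpq to Nono, Pspc1 to Nono and Pspc1 to Sfpq; symbols are replicates, lines group means, and every panel spans 1.2 log2 units. The Neat1 to Malat1 ratio has the widest gap between the groups, and the Pspc1 to Sfpq values overlap.

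The wider set of paraspeckle genes was counted against the same background. Of 7 assembly factors, which are needed for paraspeckles to form or for the long Neat1 isoform to be made, 2 rose and 0 fell (28.6% called, against 25.3% of all tested genes), with a median log2 fold change of -0.03. With all 6 libraries, no assembly factor was lower by edgeR, DESeq2 or limma voom, or at an unadjusted edgeR p under 0.05 (0 in each case). Hnrnph3, for an RNA-binding protein, measured 27.3 ± 5.36 CPM in WT and 23.3 ± 1.10 CPM in Srrm2+/- cells (SD, n = 3 each; log2 fold change -0.23, adjusted p = 0.227 by edgeR), and without WT replicate 1 it was called lower (-0.38, adjusted p = 0.0032). The 2 that rose were Smarca4, the ATPase of SWI/SNF chromatin remodellers, from 120 ± 3.69 to 140 ± 13.4 CPM (log2 fold change 0.22, adjusted p = 0.0406), and Dazap1, an RNA-binding protein, from 160 ± 5.34 to 175 ± 4.68 CPM (0.14, adjusted p = 0.0399; SD, n = 3 each). Neither call held widely. Each was lost in 5 of the 6 fits that left out a library, at adjusted p of 0.0653 to 0.118 for Smarca4 (all but the fit without Srrm2+/- replicate 2) and 0.0608 to 0.117 for Dazap1 (all but the same fit). Hnrnpk, whose protein opposes use of the poly(A) site of the short isoform, measured 604 ± 17.8 CPM in WT and 566 ± 18.0 CPM in Srrm2+/- cells (log2 fold change -0.09, adjusted p = 0.139), and Rbm14, which encodes a prion-like scaffold protein, 60.8 ± 2.06 and 56.3 ± 3.90 CPM (-0.11, adjusted p = 0.195; SD, n = 3 each).

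Of 16 genes whose products shape the 3′ ends printed above, 2 fell and 0 rose (12.5% called, against 25.3% of all tested genes), with a median log2 fold change of -0.00. No gene of this list was higher by edgeR, DESeq2 or limma voom, or at an unadjusted edgeR p under 0.05 (0 in each case). Nudt21, the subunit of CFIm that binds UGUA, fell from 99.0 ± 3.95 to 84.9 ± 0.847 CPM (log2 fold change -0.22, adjusted p = 0.00419). Its binding at the short isoform's poly(A) site, and use of that site, were not measured. Rpp25, a protein of the RNase P and RNase MRP complexes, fell from 42.1 ± 2.10 to 28.3 ± 0.587 CPM (-0.57, adjusted p = 7.19e-05; SD, n = 3 each). Both calls held under every alternative run. Cpsf6, the partner of Nudt21, measured -0.10 (adjusted p = 0.156), and Elac2, which trims the 3′ end of tRNA-like RNAs, -0.10 (adjusted p = 0.186) on the same log2 scale.

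Among 27 other genes for paraspeckle proteins, 2 rose and 1 fell (11.1% called), and the median log2 fold change was -0.01. Akap8l, a nuclear matrix protein, rose from 38.4 ± 0.829 to 47.4 ± 4.94 CPM (0.31, adjusted p = 0.0133). Ubap2l rose from 36.5 ± 2.37 to 45.4 ± 5.69 CPM (0.32, adjusted p = 0.0311), a call lost without WT replicates 2 or 3 or Srrm2+/- replicates 2 or 3, at adjusted p of 0.0836 to 0.102. Rbm4b, a splicing regulator, fell from 59.9 ± 3.54 to 47.2 ± 0.200 CPM (-0.34, adjusted p = 0.00111; SD, n = 3 each). Together the 3 lists of paraspeckle and 3′ end genes had 7 of 50 genes called, or 14%, where 25.3% of all tested genes were called. These 50 leave out Malat1, Neat1, Sfpq, Nono and Pspc1, of which 4 were called.

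**Figure D4:**
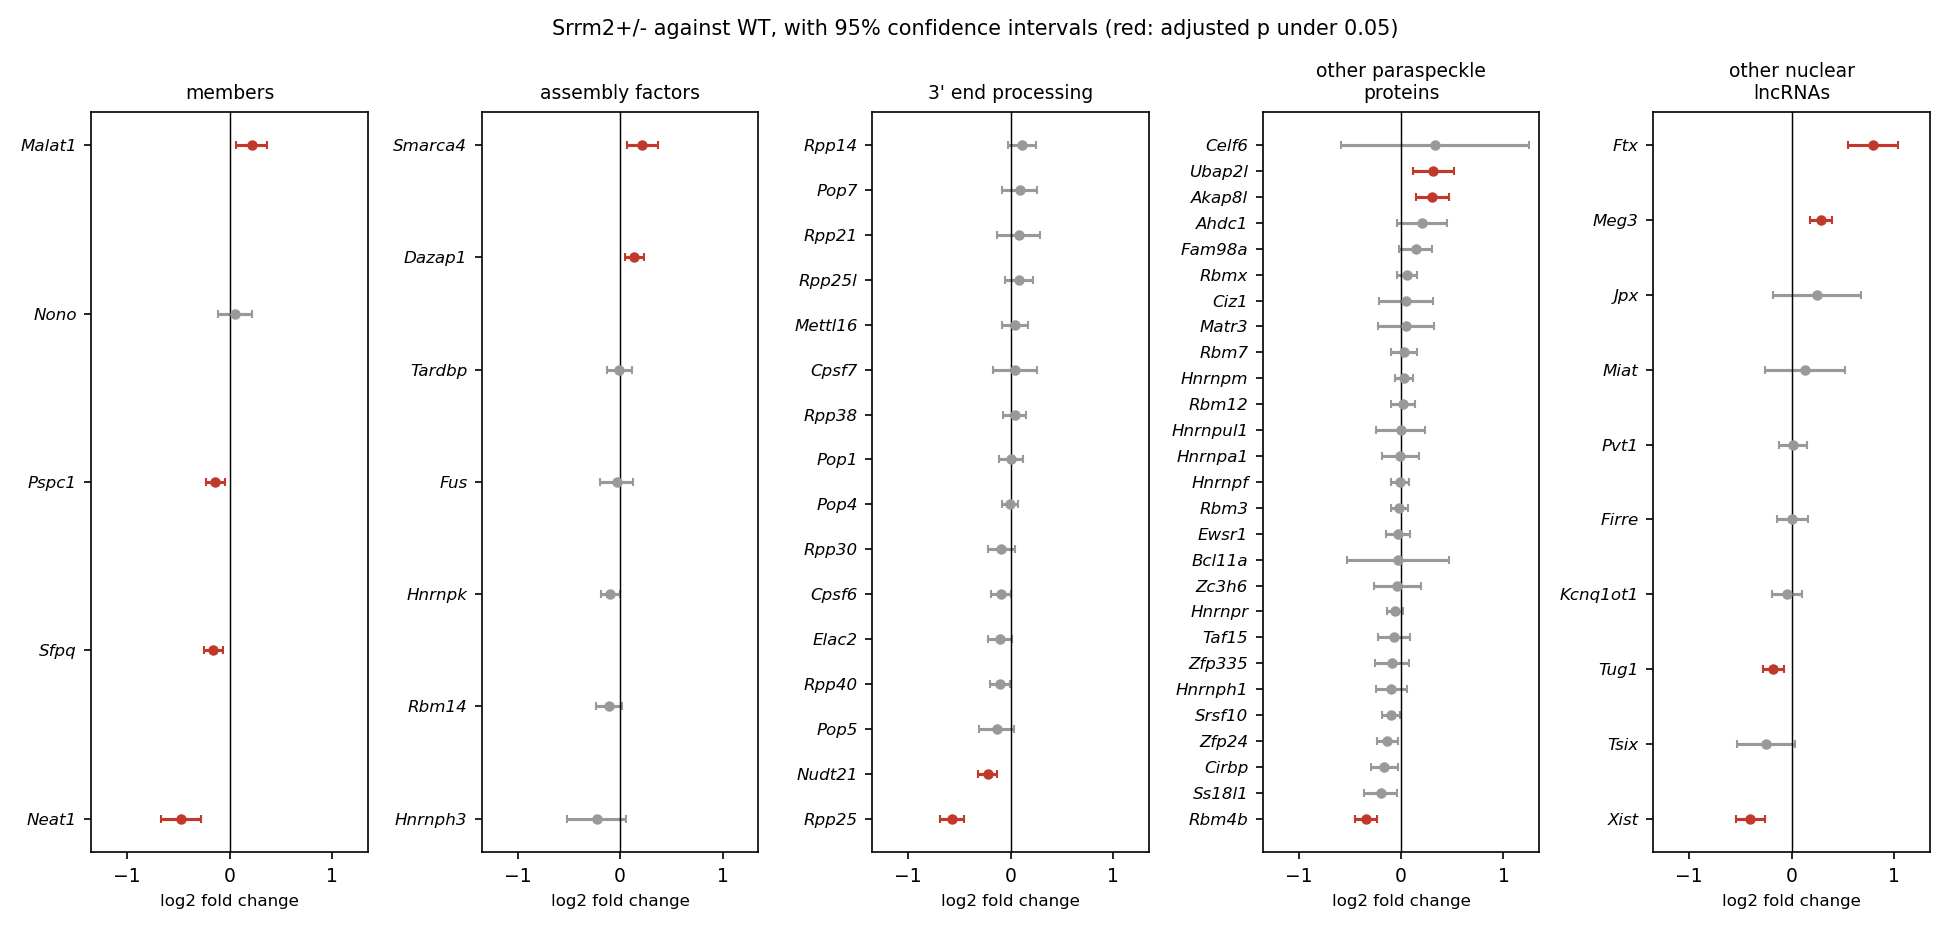
Log2 fold change, Srrm2+/- over WT, with 95% confidence intervals for Malat1, Neat1, Sfpq, Nono and Pspc1 and for the genes of 4 lists; red marks an adjusted p under 0.05. Most listed genes lie close to 0, and Neat1, Rpp25, Xist and Ftx lie farthest out among the red points.

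Other long non-coding RNAs with roles in the nucleus were set beside Malat1 and Neat1. Of 10, 2 rose and 2 fell (40% called, against 25.3% of all tested genes), with a median log2 fold change of 0.01. Ftx, a gene of the X-inactivation centre, rose from 3.85 ± 0.307 to 6.67 ± 0.459 CPM (0.79, adjusted p = 0.000834), and the imprinted Meg3 from 147 ± 6.77 to 179 ± 7.29 CPM (0.29, adjusted p = 0.00245). Tug1 fell from 218 ± 7.78 to 193 ± 8.53 CPM (-0.18, adjusted p = 0.022), a call lost without WT replicates 1 or 3 or Srrm2+/- replicates 2 or 3 (adjusted p of 0.0648 to 0.084). Xist, the RNA that coats an inactivated X chromosome, fell from 34.5 ± 1.08 to 26.1 ± 1.92 CPM (-0.40, adjusted p = 0.00158; SD, n = 3 each). Its antisense partner Tsix measured -0.25 (edgeR adjusted p = 0.192). The strand setting of the counting is not given in the sources used here. How reads from any sequence that Xist and Tsix share on opposite strands were divided is therefore not known.

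The genes around Malat1 and Neat1 were examined because the 2 RNAs lie next to each other and changed in opposite directions. Of 51 genes annotated within 250 kb, 44 were in the table and 31 were tested, with 6 higher and 3 lower in Srrm2+/- cells (29.0% called, against 25.3% over all genes) and a median log2 fold change of 0.06. The gene nearest to Neat1 with a call was Frmd8, 4.22 kb away, which encodes a partner of the iRhom proteins. It rose from 14.7 ± 0.521 to 21.9 ± 1.30 CPM (log2 fold change 0.58, SE 0.06; adjusted p = 0.000221), while its antisense neighbour Frmd8os held 10 to 26 counts per library. Capn1, a calcium-dependent protease gene, fell from 48.0 ± 1.67 to 33.3 ± 0.871 CPM (-0.53, adjusted p = 6.61e-05), and Kat5, for a histone acetyltransferase, from 6.81 ± 1.01 to 3.89 ± 1.06 CPM (-0.81, adjusted p = 0.0146; SD, n = 3 each). Kat5 overlaps Rnaseh2c, and its call was lost without WT replicate 1, Srrm2+/- replicate 2 or Srrm2+/- replicate 3 (adjusted p of 0.0502 to 0.0577).

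Tm7sf2, for a sterol reductase, was lower by -0.49 on the log2 scale (adjusted p = 0.00747). The overlapping Vps51, for a tethering factor of vesicles, was higher by 0.27 (adjusted p = 0.00964). Fau, for a ubiquitin-like protein fused to a ribosomal protein, was higher by 0.19 (adjusted p = 0.0104) and Znhit2 by 0.31 (adjusted p = 0.0139), which was lost without Srrm2+/- replicate 1 (adjusted p = 0.0504). Ehbp1l1 was higher by 0.42 (adjusted p = 0.0363), a call lost in every fit that left out a library except that without WT replicate 3, at adjusted p of 0.0597 to 0.116. Rela, for a subunit of NF-kappaB, was higher by 0.31 (adjusted p = 0.0379), and that call was lost with any 1 library left out (adjusted p of 0.073 to 0.116) and with DESeq2 (adjusted p = 0.0798). Higher and lower genes were found on both sides of the Malat1 and Neat1 loci, and no tested gene lay between the 2.

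**Figure D5:**
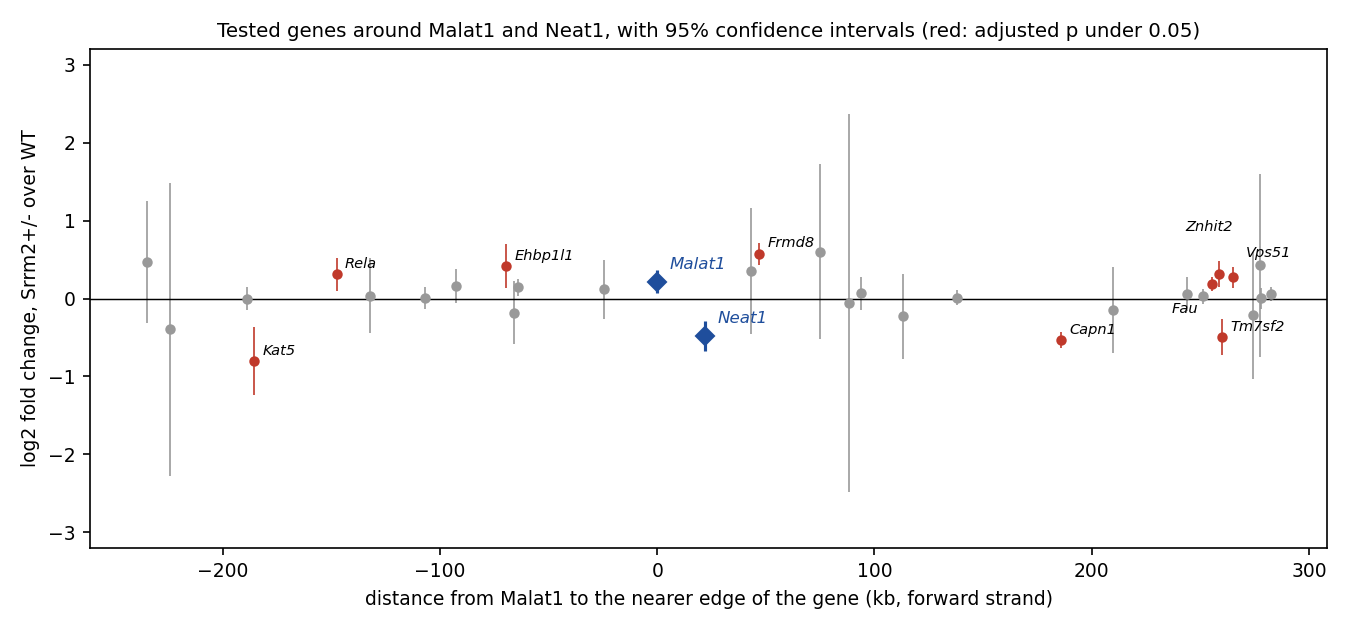
Log2 fold change of the 31 tested genes within 250 kb, plotted against their distance from Malat1 in kb, with 95% confidence intervals; blue diamonds are Malat1 and Neat1, and red marks an adjusted p under 0.05. The 9 called genes lie on both sides, with Frmd8 the nearest of them to Neat1.

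The pattern over the 6 libraries, centred on each gene's mean log2 CPM, was compared with those of 12063 tested genes of sufficient level. By Euclidean distance, Nek9 (0.0526), Tnfrsf10b (0.0554) and Enox2 (0.0675) were most like Malat1, at log2 fold changes of 0.23, 0.22 and 0.19. Aplp1 (0.0855), Rnf213 (0.0936) and Ppp1r16b (0.124) were most like Neat1, at -0.47, -0.54 and -0.44. These distances describe 6 libraries in which the groups already differ, and they carry no test.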

How the data were processed

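Total RNA libraries (TruSeq Stranded, paired-end reads) were pseudo-aligned by the authors with Kallisto 0.46.1 to GENCODE M24 transcripts. The deposited values are estimated counts per gene, not normalized, and the strand setting is not given in the sources used here. Totals were 54150000 to 58500000 in WT and 61020000 to 69930000 in Srrm2+/- libraries, so the spread between libraries, not counting error, limits precision. Counts were rounded. Names and positions came from GENCODE M21 (GRCm38, 42156 identifiers matched).

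edgeR 4.0.16 (R 4.3.3) was run with filterByExpr (minimum count 10, minimum total 15), TMM, glmQLFit and glmQLFTest, two-sided, genotype alone, with Benjamini-Hochberg adjustment over 18905 genes. Ratios were tested by exact permutation. Labels give replicate numbers but not separate animals, so p-values measure the spread between cultures. Scripts were tested on simulated counts. Alternatives were RLE, upper quartile, DESeq2 1.42.0, limma voom 3.58.1, other filters and thresholds, a replicate block, libraries left out, and normalization without Malat1 or without mitochondrial, ribosomal and short RNAs.

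The 5 genes and the lists were chosen with earlier results of these data known. Genes named were Srrm2, the 5 genes, list members led by called ones, called neighbours, and the 3 closest patterns to Malat1 and to Neat1 (mean log2 CPM of at least 1). Spike-ins were not used here.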

Additional observations from a re-analysis of the deposited data

How the results depend on the processing

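Neat1 kept its direction and its call under all 15 alternatives (log2 fold change -0.54 to -0.36), and no scaling turned the sign of any of the 5 genes. With each library left out, the log2 fold change ranged from 0.14 to 0.26 for Malat1, -0.18 to -0.13 for Sfpq, -0.16 to -0.11 for Pspc1 and -0.034 to 0.11 for Nono, whose lowest value was a change of sign. The Pspc1 to Sfpq log2 ratio ranged from -0.016, a change of sign, to 0.060. Pspc1 was not called with the filter of at least 1 count (-0.13, adjusted p = 0.0634). Replicate numbers did not pair the libraries (correlations of deviations -0.0285, -0.0337 and -0.03, and 0 of 6 libraries correlated best with their own number). With the replicate number as a block, 4166 genes were called in place of 4781, 1 assembly factor was called, and Malat1 (0.22, adjusted p = 0.0692) and Pspc1 (-0.14, adjusted p = 0.0683) were not. For the log2 ratios, an exact permutation of signs within replicate numbers, taken as a block, gave p = 0.25 for Neat1 to Malat1, the smallest that 3 numbers allow. At an adjusted p under 0.01, 2779 genes, 0 of the assembly factors, 1 of the other paraspeckle genes and 4 of the nearby genes were called. With a library left out, 0 to 2 assembly factors and 3515 to 4122 genes were called; without WT replicate 1 the 1 assembly factor called was Hnrnph3, which was lower (-0.38). Of the 20 listed and nearby genes called, 300 values were recomputed, of which 0 changed sign and 38 were no longer called; of 71 not called, 74 of 1054 values changed sign and 6 passed the threshold. Causes were not tested. With 3 cultures of 1 gene-trap line, differences such as that of Pspc1 were at the limit of what could be called.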
